A study of Mus musculus with 15 samples.

Results

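Tumors of the gastric antrum were compared with tumors of the gastric corpus, 3 libraries against 3, over all genes. The 6 libraries were taken by their labels from a bulk RNA sequencing series of 15 mouse stomach samples, which also holds 3 normal tissues and 6 tumors from both sides of the cardia. All mice were C57BL/6, labelled as 7 to 8 weeks old, and all samples, the normals included, carried the same genotype, which joins Pou2f3-CreERT with floxed alleles of 2 genes (Rb1fl/fl and Trp53fl/fl) and with LSL-MycT58A. Every animal received tamoxifen by intraperitoneal injection at 50 mg/kg for a single day, and tissue was taken 5 weeks later. In this model a tamoxifen-dependent Cre driven by Pou2f3, the master regulator of chemosensory tuft cells, deletes the tumor suppressors Rb1 and Trp53 and switches on a Myc variant that resists degradation, so the alleles are altered only where Cre was active. The series is about mixed tumors with a neuroendocrine and a non-neuroendocrine component. The labels call the samples biological replicates but not whether each came from its own animal, and p-values therefore cover no more than the variation among the samples sequenced. Libraries are called antrum 1 to 3 and corpus 1 to 3 after their site and replicate number.

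The antrum and the corpus are lined by different glands. Corpus glands hold acid-secreting parietal cells, enzyme-secreting chief cells and enterochromaffin-like endocrine cells that make histamine, while antral glands hold mucous cells and gastrin-secreting G cells, and in both regions somatostatin cells restrain secretion. Regional identity is laid down by transcription factors such as Pdx1 and Nkx6-3 in the antrum. The comparison asks whether tumors started by the same alleles in both regions differ in gene expression, and whether genes of the normal glands, of endocrine cells, of Myc and the cell cycle, or of the immune response differ with the site.

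Total counts were 14307391, 17123158 and 17213283 in antrum 1 to 3 and 15510193, 17352610 and 17844668 in corpus 1 to 3. Levels are given as CPM, counts divided by the library size after TMM scaling, in which a single count stood for 0.0541 to 0.0791 CPM in these 6 libraries. Antrum 1 and corpus 1 stood apart from the rest of their groups. The 17 pan-epithelial markers are keratins, junction and adhesion genes, transcription factors, splicing factors and a protease. In antrum 1, their summed level was 291 CPM, against 10620 and 8981 CPM in antrum 2 and 3 and 13640, 6652 and 5812 CPM in corpus 1 to 3. The log2 CPM values of antrum 1 correlated with antrum 2 and 3 at a Pearson r of 0.828 and 0.852 over genes. Antrum 2 and 3 correlated at 0.956 and corpus libraries among themselves at 0.94 to 0.972. The summed level of 33 neuroendocrine vesicle and granule genes was highest in antrum 1, at 6217 CPM, and was 1651 and 2062 CPM in antrum 2 and 3 and 1270, 4393 and 3760 CPM in corpus 1 to 3. Corpus 1 had the lowest neuroendocrine sum of the 6, the highest epithelial sum, and the highest correlation of the 6 with a normal library, at r 0.932. Medians of the main gene lists are therefore given with all libraries, without antrum 1, and without antrum 1 and corpus 1 together, the last chosen after the data were seen, and without other single libraries where these moved them most. With 2 libraries in a group, more genes are without overlap by construction. Without antrum 1, 1597 of 16604 genes were higher in every antrum and 1613 in every corpus tumor, without antrum 2 it was 2539 and 2560 of 16611, and without antrum 1 and corpus 1 it was 3615 and 3618 of 16589. In bulk RNA, fewer cells of a type and less RNA per cell cannot be told apart.

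**Figure D1:**
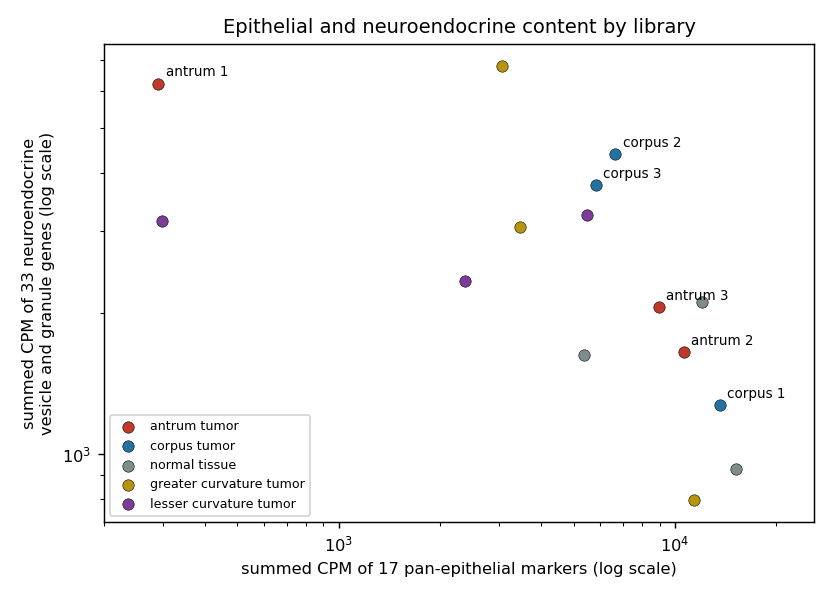
Summed CPM of 17 pan-epithelial markers (x axis, log scale) against summed CPM of 33 neuroendocrine vesicle and granule genes (y axis, log scale), 1 point per library of the series, coloured by group. Antrum 1 sits at 291 and 6217 CPM, far from antrum 2 and 3, and corpus 1 sits at 13640 and 1270 CPM.

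The labelled sites were checked against genes of the normal glands. Gast, the gastrin gene of antral G cells, was at 0, 83.2 and 17.7 CPM in antrum 1 to 3 and at 0.158, 2.3 and 0 CPM in corpus 1 to 3. Thus 2 of the 3 antrum tumors exceeded every corpus tumor, and antrum 1 held no Gast count. Atp4a, the catalytic subunit of the gastric proton pump, was at 35.7, 579 and 74.9 CPM in the antrum tumors and at 4177, 996 and 1447 CPM in the corpus tumors. Every corpus tumor lay above every antrum tumor, yet the parietal gene was far above 0 in the antrum tumors too. The normals gave no single regional reference, since their part of the stomach is not labelled and their Gast levels were 0, 37.1 and 604 CPM.

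Over all genes, no gene passed. Of 16224 genes tested with edgeR's quasi-likelihood test, 0 had an adjusted p under 0.05 (0% in either direction), and the smallest adjusted p was 0.8185, shared by 5 genes. An unadjusted p under 0.05 was found for 614 genes (3.78%), of which 378 were higher in antrum tumors (2.33%) and 236 in corpus tumors (1.45%). In 1518 genes (9.36%) the groups did not overlap, 777 with every antrum tumor above every corpus tumor (4.79%) and 741 the other way round (4.57%). In the deposited TPM, where the median log2 difference of all genes was shifted to 0.12, this split was 1106 to 318. The CPM shares of 4.79% and 4.57% are the background for every list count below that covers all 6 libraries. The median log2 difference of all genes, antrum minus corpus, was -0.01, its median standard error (SE) was 0.408, and 1837 genes (11.3%) differed by more than 1 on the log2 scale. DESeq2, the other count model run on the same samples, called 62 genes, 35 higher in antrum tumors and 27 in corpus tumors. Without corpus 2, edgeR called 1 gene, the ribosomal protein pseudogene Rpl34-ps1 (adjusted p = 0.000388). Whether its counts include reads of its parent gene was not tested. In 33 of the 35 DESeq2 calls and in 10 of the 27 the groups did not overlap. Among all 27, with or without overlap, 16 had over 90% of the counts of the 6 tumors in corpus 2. On the scores of the first principal component of all 15 libraries, which held 46.9% of the variance, the group means were 34.1 for antrum and -30.4 for corpus tumors, and an exact two-sided permutation test gave p = 0.5, where 0.1 is the smallest this design allows.

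**Figure D2:**
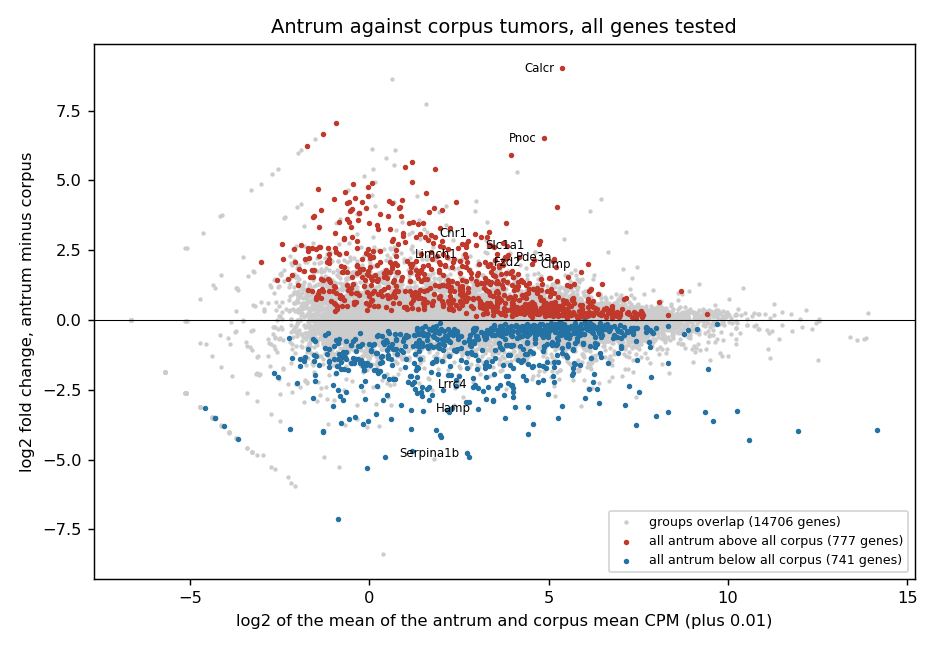
Log2 fold change, antrum minus corpus (y axis), against the log2 of the mean of both groups' mean CPM (x axis), 1 point per gene tested. Red and blue points are the 777 and 741 genes whose groups do not overlap, none of which passed, and labels mark some of the genes described next.

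Because none qualified by the adjusted p, the genes described next are those with the smallest p among genes whose groups do not overlap and whose higher group averages at least 10 CPM, up to 12 in each direction. None passed the test with edgeR, and each statement on them is of levels. Slc43a2, a transporter of large neutral amino acids (chromosome 11, 75531694 to 75577575 on GRCm38), was at 98.5, 80.9 and 117 CPM in antrum 1 to 3 and at 38.3, 56.3 and 44.2 CPM in corpus 1 to 3. The groups were clear of each other, and their means were 98.7 ± 17.9 and 46.3 ± 9.14 CPM (SD, n = 3 each). The log2 difference was 1.09 (SE 0.20), with an adjusted p of 0.8185 in edgeR and 8.99e-05 in DESeq2. Clmp, an adhesion molecule of epithelial junctions (chromosome 9, 40685962 to 40785319), was at 40.8, 18.8 and 51.2 CPM against 8.38, 11.6 and 7.57 CPM, a log2 difference of 2.01 (SE 0.37) with an adjusted p of 0.8185 in edgeR and 0.000336 in DESeq2.

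Further genes on the antrum side were picked by the same rule, so no common function was tested. Cnr1, the cannabinoid receptor of nerve cells (chromosome 4, 33924593 to 33948831), was at 19.6, 4.95 and 16.6 CPM in the antrum tumors and at 1.5, 1.51 and 1.78 CPM in the corpus tumors, a log2 difference of 3.09 (SE 0.72). Pnoc, which encodes the precursor of the neuropeptide nociceptin (chromosome 14, 65400673 to 65425472), was at 3.93, 16.3 and 153 CPM against 0.316, 0.337 and 1.19 CPM, a log2 difference of 6.51 (SE 1.52). The antrum tumors themselves spanned a wide range, with antrum 3 highest. Calcr, the calcitonin receptor (chromosome 6, 3685680 to 3764714), was at 0.799, 40 and 205 CPM against 0.395, 0 and 0.108 CPM. Its corpus libraries held 5, 0 and 2 counts, antrum 1 held 13, and the fitted log2 difference of 9.02 (SE 2.46) rested on antrum 2 and 3. Map1a, a microtubule-binding protein of neurons, was at 17.3, 12.9 and 17.6 CPM against 6.09, 9.26 and 8.97 CPM (log2 difference 0.97, SE 0.23), and Slc1a1, a glutamate transporter, at 14.6, 4.37 and 21.8 CPM against 1.11, 3.2 and 2 CPM (2.68, SE 0.69).

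Also on the antrum side were Fzd2, a receptor for Wnt ligands, at 15.2, 7.69 and 22 CPM against 2.06, 3.76 and 4.81 CPM (log2 difference 2.07, SE 0.49), and Schip1, a cytoskeletal partner of schwannomin, at 31.2, 15.8 and 25.3 CPM against 8.14, 7.91 and 8.76 CPM (1.54, SE 0.37). Limch1, an actomyosin regulator, was at 3.93, 7.58 and 20.3 CPM against 1.82, 2.8 and 1.57 CPM. Pde3a, a phosphodiesterase of cyclic nucleotides, was at 28.9, 11.4 and 30.5 CPM against 2.45, 7.35 and 5.3 CPM. For the antrum-side genes named here other than Slc43a2 and Clmp, the adjusted p in edgeR was 0.9534. DESeq2 called each gene named, with adjusted p up to 0.0452 (Pde3a). The mean of the 3 normals lay below the antrum mean for each of these genes, and for Clmp it was 34.4 CPM, close to the antrum mean of 36.9 ± 16.6 CPM (SD, n = 3).

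On the corpus side the 12 genes differed less in size. Tbc1d9, which carries a Rab GTPase-activating domain (chromosome 8, 83165352 to 83272934), was at 30.4, 36.5 and 27.5 CPM in antrum 1 to 3 and at 79.5, 47.9 and 55.1 CPM in corpus 1 to 3, a log2 difference of -0.95 (SE 0.22). Coa3, an assembly factor of mitochondrial cytochrome oxidase, was at 44, 41.2 and 31.8 CPM against 58.3, 61 and 52.2 CPM (-0.55, SE 0.14), and Fam210b, a mitochondrial protein, at 39, 70.2 and 49 CPM against 76.8, 118 and 113 CPM (-0.96, SE 0.27). Gadd45g, a stress-response gene, was at 19.7, 20.2 and 17 CPM against 25.6, 34.5 and 31.4 CPM (-0.69, SE 0.20). For these 4 genes the groups were clear of each other but close. Kifc3, a minus-end kinesin, Gca, a calcium-binding protein named grancalcin, Enpp4, an ectonucleotidase, and the protein-coding gene annotated AL732309.1 had log2 differences of -0.87 (SE 0.27), -1.22 (SE 0.36), -1.25 (SE 0.40) and -0.69 (SE 0.18). Lrrc4, a synaptic adhesion molecule, was at 1.6, 4.02 and 2.04 CPM against 24, 5.89 and 8.27 CPM, highest in corpus 1. Gper1, a membrane receptor for estrogen that marks chief cells in the mouse stomach, was at 3.44, 3.67 and 3.85 CPM against 20.9, 7.8 and 8.76 CPM (-1.77, SE 0.56).

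The largest differences among these 12 were in a pair of genes best known from the liver. Hamp, which encodes the iron hormone hepcidin (chromosome 7, 30942368 to 30944032), was at 0.615, 2.97 and 1.27 CPM in the antrum tumors and at 26.9, 8.81 and 8.44 CPM in the corpus tumors, a log2 difference of -3.18 (SE 0.97). The normals were at 0.882, 0.436 and 0.535 CPM, below every corpus tumor. Serpina1b, an alpha-1 antitrypsin gene (chromosome 12, 103728156 to 103830373), was at 0.738, 0.524 and 0.11 CPM against 5.69, 7.91 and 24.2 CPM (-4.77, SE 1.36). Its neighbour Serpina1a gave -4.93 (SE 1.57), but the Serpina1 copies are nearly identical and their counts cannot be assigned with certainty. All 12 had an adjusted p of 0.9534 in edgeR. DESeq2 called Tbc1d9, AL732309.1 and Serpina1b, with an adjusted p of 0.0452, 0.028 and 0.0151, and not the other 9. Of 9 hepatocyte genes tested, 3 were higher in every corpus tumor, against 4.57% of all genes, and none in every antrum tumor. The median was -1.09, and without antrum 2 it was -2.80 with 6 of 9 higher in every corpus tumor, against 2560 of 16611 genes. The summed level ran from 48.8 to 157 CPM in antrum and from 162 to 224 CPM in corpus tumors.

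Genes of corpus glands were lower in the antrum tumors than in the corpus tumors, and none passed. Of 15 parietal genes tested, 8 had every corpus tumor above every antrum tumor, against a background of 4.57% of all genes, 0 were placed the other way round, and 14 had a negative log2 difference. The list median was -1.49, against -0.01 over all genes, and it was -1.32 without antrum 1, -2.74 without antrum 2, -0.89 without corpus 1 and -0.96 without antrum 1 and corpus 1. The 2 subunits of the proton pump were the most abundant of the named parietal genes in each corpus tumor. Atp4a (chromosome 7, 30712209 to 30725534), with the levels given above, differed by -3.26 (SE 1.52, adjusted p = 0.9534 in edgeR), and Atp4b, its beta subunit (chromosome 8, 13386205 to 13396825), was at 15.7, 312 and 36.6 CPM against 2122, 565 and 860 CPM, a difference of -3.28 (SE 1.66, adjusted p = 0.9534 in edgeR). The normals held 5142, 3346 and 2546 CPM of Atp4a, and corpus 1 alone reached that range.

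The partners of the pump were arranged likewise. Kcne2, the beta subunit of the potassium channel that serves the pump, was at 0.738, 10.6 and 1.93 CPM against 71.4, 17.8 and 27 CPM (-3.13, SE 1.23). Slc4a2, the chloride and bicarbonate exchanger of the basal membrane, was at 48.2, 138 and 96.2 CPM against 424, 151 and 198 CPM (-1.45, SE 0.59). Esrrb, an orphan nuclear receptor, was at 0.43, 1.11 and 0.661 CPM against 6.4, 2.3 and 3.62 CPM (-2.47, SE 0.88), whereas its relative Esrrg, a regulator of parietal cells, overlapped, at 84.6, 72.4 and 50 CPM against 180, 75 and 164 CPM (-1.01, SE 0.42). The summed parietal level of 255 to 3423 CPM in antrum tumors lay below the 3525 to 11420 CPM of corpus tumors. Since antrum 1 held few epithelial transcripts, ratios to epithelial genes were added after the values were seen. Those of Pgc and of the pit and surface mucous list are given below. Atp4a per Cdh1 (E-cadherin, a junction protein of all epithelial cells) was 0.867, 0.501 and 0.108 in the antrum tumors and 2.62, 1.34 and 2.02 in the corpus tumors, again without overlap. The summed parietal list per summed pan-epithelial list did overlap, at 0.877, 0.322 and 0.174 against 0.837, 0.53 and 0.753.

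Because Atp4a marks the corpus gland and Gast the antral gland, the 250 bases before their starts are shown, 5′ to 3′ on the plus strand. Of Atp4a, Atp4b and Gast, 2 matched by symbol in the RefSeq promoter table on GRCm38.p6. Both windows were searched on both strands for AAGGTCA, the site of estrogen-related receptors such as Esrrb and Esrrg, and for TATAAA, and capitals mark a match.
Atp4a, chr7:30711959-30712208: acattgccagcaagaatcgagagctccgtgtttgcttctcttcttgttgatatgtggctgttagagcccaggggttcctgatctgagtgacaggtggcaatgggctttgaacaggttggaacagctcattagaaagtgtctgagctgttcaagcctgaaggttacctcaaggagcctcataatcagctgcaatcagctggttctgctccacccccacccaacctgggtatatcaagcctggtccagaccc
Gast, chr11:100334157-100334406: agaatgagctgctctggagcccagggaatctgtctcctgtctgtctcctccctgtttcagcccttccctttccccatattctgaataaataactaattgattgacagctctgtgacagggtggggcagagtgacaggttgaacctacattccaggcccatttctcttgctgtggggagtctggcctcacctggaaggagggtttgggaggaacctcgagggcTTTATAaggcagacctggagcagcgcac
The Gast window held 1 match to TATAAA, read on the minus strand, and neither window held AAGGTCA. Of 32851 windows of this length in the table, 12.4% held TATAAA and 4.08% held AAGGTCA on either strand.

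Chief cell genes followed the parietal genes. Of 7 tested, 4 had every corpus tumor above every antrum tumor, against 4.57% of all genes, and all 7 had a negative log2 difference, against 50.8%. The median was -1.77, and it was -1.72 without antrum 1, -2.46 without antrum 2 and -1.41 without antrum 1 and corpus 1. Pgc, which encodes the zymogen pepsinogen C (chromosome 17, 47726842 to 47734482), was at 186, 4450 and 2045 CPM in the antrum tumors and at 77370, 7082 and 19470 CPM in the corpus tumors. The difference of -3.96 had an SE of 1.93 and an adjusted p of 0.9534 in edgeR, and per Cdh1 the ratio was 2.95 to 4.51 in antrum and 9.51 to 48.5 in corpus tumors. The normals, at 57010 to 125500 CPM, were above 5 of the 6 tumors and bracketed corpus 1. Chia1, an acidic chitinase, was at 2.89, 132 and 214 CPM against 3337, 284 and 634 CPM (-3.61, SE 1.90). Cym, the milk-clotting protease chymosin, was at 11.1, 42.2 and 17.9 CPM against 71.4, 45.4 and 121 CPM (-1.74, SE 1.01), and all 6 tumors exceeded the normals, at 5.14, 1.75 and 2.98 CPM.

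**Figure D3:**
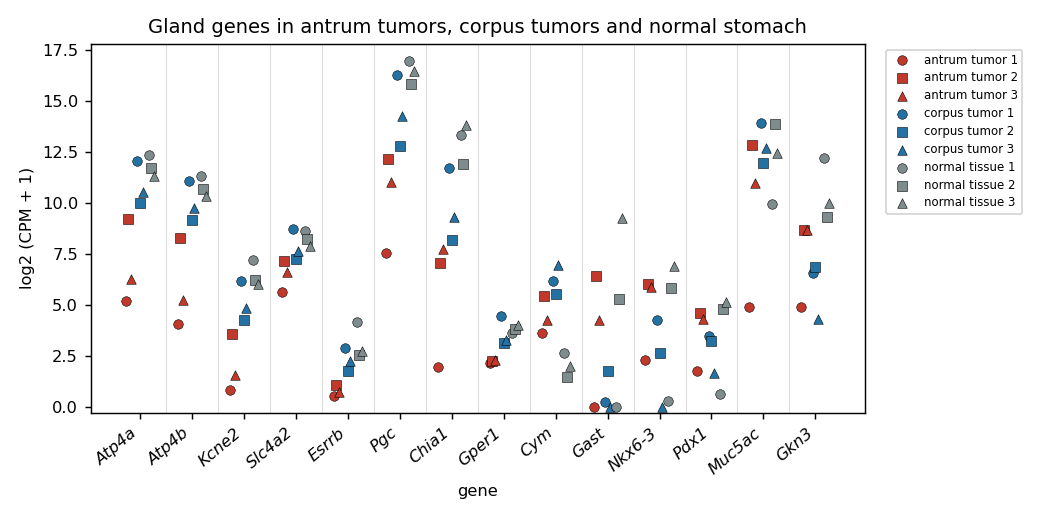
Log2 of CPM plus 1 (y axis) for 14 gland genes (x axis) in each antrum tumor (red), corpus tumor (blue) and normal tissue (grey), with the marker shape giving the replicate. For Atp4a, Atp4b, Kcne2, Slc4a2, Esrrb, Pgc, Chia1, Gper1 and Cym all antrum tumors lie below all corpus tumors, and for Gast, Nkx6-3, Pdx1, Muc5ac and Gkn3 the groups overlap.

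The counts of antral gland genes without overlap depended on antrum 1. Of 12 tested, 2 were higher in every antrum tumor and 1 in every corpus tumor, against 4.79% and 4.57% of all genes. Without antrum 1 the counts were 7 and 1, against 1597 and 1613 of 16604 genes. The median was 0.35, and it ran from 0.05 without antrum 2 to 0.73 without antrum 1, and was 0.81 without antrum 1 and corpus 1. Gast (chromosome 11, 100334407 to 100336996) differed by 5.31 with an SE of 2.59 and an interval from -0.46 to 11.1, and its adjusted p in edgeR was 0.9534. Pdx1, the factor that specifies antrum and duodenum, was at 2.34, 22.8 and 18.7 CPM against 9.96, 8.24 and 2.11 CPM (1.11, SE 1.19). Nkx6-3, needed for gastrin cells, was at 3.87, 63.7 and 56.8 CPM against 17.8, 5.22 and 0 CPM (2.44, SE 1.97). For both factors antrum 2 and 3 lay above all corpus tumors and antrum 1 lay among them. The 2 genes without overlap on the antrum side were Lgr5, a stem cell receptor of the antral gland base, at 10.8, 12.2 and 19.2 CPM against 7.35, 7.52 and 8.6 CPM (0.84, SE 0.57), and Onecut1, a foregut factor, at 2.4, 0.874 and 0.275 CPM against 0.237, 0 and 0.0541 CPM. Onecut2, its relative, overlapped at 44.3, 84.4 and 60.1 CPM against 55.3, 40 and 52 CPM (0.36, SE 0.37), and all 6 tumors were above the normals, which reached 4.59 CPM. Sstr2, a somatostatin receptor, was at 6.88, 4.37 and 1.65 CPM against 13.4, 7.57 and 9.35 CPM.

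With all libraries, mucous genes of the surface and neck overlapped between the sites in CPM. Of 11 pit and surface mucous genes and 9 neck and deep gland genes, 0 were without overlap in either direction, and the medians were -0.65 and -0.18 (-0.08 and 0.38 without antrum 1). Without antrum 1 and corpus 1 the medians turned to 0.49 and 0.77, with 7 of 11 and 5 of 9 higher in every antrum tumor. With so few libraries, 3615 of 16589 genes were higher in every antrum tumor. The summed pit list per summed pan-epithelial list, a ratio chosen after the values were seen, was lower in every antrum tumor. It was 3.47, 6.62 and 5.39 in antrum 1 to 3 and 7.64, 7.08 and 7.84 in corpus 1 to 3. Muc5ac, the surface mucin, was at 28.8, 7303 and 2027 CPM against 15170, 3882 and 6522 CPM (-1.45, SE 1.86), so antrum 2 lay within the corpus range. Gkn3, a gastrokine of neck cells, was at 28.5, 408 and 397 CPM against 91.6, 115 and 18.6 CPM (1.89, SE 1.27), with antrum 2 and 3 highest. Cftr, the chloride channel, was at 1.11, 63 and 112 CPM against 35.2, 36 and 9.62 CPM (1.13, SE 1.24). The 17 pan-epithelial markers had a median of -0.40 and no gene without overlap, and without antrum 1 the median was 0.16. Without antrum 1 and corpus 1 it was 0.67, with 17 of 17 positive. Of these, 13 were higher in every antrum tumor, against 3615 of 16589 genes.

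Other epithelia were present at low or uneven levels. Of 17 intestinal genes, 1 was higher in every antrum tumor and 3 in every corpus tumor, against 4.79% and 4.57% of all genes. The median was -0.18 and turned to 0.30 without antrum 1 and 0.10 without corpus 1. Zg16, a lectin of mucous granules, was at 7.56, 50.2 and 33.2 CPM in the antrum tumors and at 0.632, 0.673 and 0.216 CPM in the corpus tumors (5.90, SE 2.23, adjusted p = 0.9534 in edgeR), while normal 3 held 341 CPM and the other normals at most 1.69 CPM. Fabp1, a fatty acid binding protein, and Apoa1, an apolipoprotein of enterocytes and liver, were placed the other way, with Apoa1 at 6.58, 146 and 23.5 CPM against 952, 356 and 437 CPM (-3.31, SE 1.62). Of 20 squamous forestomach genes none was without overlap, and the median was -0.81, or 0.23 without corpus 2. Sprr3, a cornified envelope protein, was at 7.74 CPM in corpus 2 and at 0 in the other 5 tumors, and Krt13, a keratin of the squamous layer, was at 0, 8.8 and 6.11 CPM against 8.38, 14.8 and 3.79 CPM, compared with 1864 CPM in normal 2. Of 15 pancreatic acinar genes, 3 were higher in every corpus tumor, against 4.57% of all genes, with a median of -1.28. Antrum 1 held a summed level of 2476 CPM, against 565 and 165 CPM in antrum 2 and 3. Without antrum 1 the median was -3.57 with 13 of 15 higher in every corpus tumor, against 1613 of 16604 genes. Try4, a trypsinogen with near-identical copies, was at 6.76, 2.85 and 0.33 CPM against 97.2, 19 and 14.8 CPM (-3.72, SE 1.35), and Cpa1, carboxypeptidase A, at 20.2, 5.94 and 0.33 CPM against 133, 59.1 and 29.8 CPM.

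Endocrine genes had no common direction. Of 15 hormone genes and enzymes tested, 1 was higher in every antrum tumor and 2 in every corpus tumor, against 4.79% and 4.57% of all genes. The log2 differences ran from -3.77 to 5.31, and their median of 0.88 was 0.26 without antrum 2 and 1.61 without corpus 2. Sst, the somatostatin gene (chromosome 16, 23889573 to 23890958), was at 9.71, 46.5 and 14.1 CPM in antrum 1 to 3 and at 131, 578 and 253 CPM in corpus 1 to 3. Every corpus tumor lay above every antrum tumor, and the normals, at 218, 105 and 233 CPM, lay above every antrum tumor, normal 2 being below the lowest corpus tumor. The log2 difference was -3.77 (SE 1.35, unadjusted p = 0.0161, adjusted p = 0.9534 in edgeR). Hdc, histidine decarboxylase, which makes histamine (chromosome 2, 126593667 to 126619299), was at 78.2, 6.7 and 4.35 CPM against 99.1, 97.1 and 549 CPM (-3.06, SE 1.35). Antrum 1 lay close to the corpus tumors, and antrum 2 and 3 far below them. Slc18a2, the vesicular monoamine transporter of the same cells, was arranged likewise, at 28.8, 6.35 and 2.48 CPM against 52.8, 59 and 62.6 CPM (-2.21, SE 1.10). Vgf, a neuroendocrine secretory protein, was at 12.1, 8.51 and 48.4 CPM against 0.632, 5.22 and 4.38 CPM (2.74, SE 1.17).

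Ratios to Chga, the chromogranin of endocrine granules, were chosen after the values were seen, and Hdc and Slc18a2 were lower in every antrum tumor on that scale too. Hdc per Chga was 0.023, 0.0209 and 0.0105 in the antrum tumors and 0.176, 0.042 and 0.298 in the corpus tumors. Slc18a2 per Chga was 0.00599 to 0.0198 in the antrum and 0.0255 to 0.094 in the corpus tumors, whereas Sst per Chga did overlap, at 0.00285 to 0.145 against 0.137 to 0.25. Chga itself was at 3403, 320 and 414 CPM against 562, 2312 and 1844 CPM, so antrum 1 was above and antrum 2 and 3 below all corpus tumors (-0.19, SE 1.14).

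The medians of the neuroendocrine lists were above 0 with all libraries, and again no gene passed. The summed vesicle and granule level of antrum 2 and 3 lay below that of corpus 2 and 3. Among 20 neuroendocrine transcription factors, 3 were higher in every antrum tumor, against a background of 4.79%, 0 were lower in every one, and 17 had a positive log2 difference, against 49.1% of all genes. The median was 0.89, but 0.38 without antrum 1 and -0.02 without antrum 1 and corpus 1. In that last fit 6 of 20 were higher in every antrum tumor and 5 in every corpus tumor, against 3615 and 3618 of 16589 genes. Neurod1, a proneural factor of endocrine cells (chromosome 2, 79452521 to 79456751), was at 79.4, 41.5 and 48.3 CPM against 1.5, 30 and 7.35 CPM (2.12, SE 1.28). Pax6, a factor of gastrin and other endocrine cells, was at 19.4, 62.9 and 144 CPM against 0.395, 21.3 and 8.92 CPM, so antrum 1 lay just below corpus 2 (2.88, SE 1.18). Pou4f1 and Pou3f2, neuronal POU factors, were also without overlap but at most 4.62 CPM in any tumor. Neurod2 was at 3.81, 0.117 and 2.37 CPM against 0, 0.28 and 0.0541 CPM.

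Of 33 vesicle and granule genes, 25 had a positive log2 difference, 1 was higher in every antrum tumor and 1, Slc18a2, in every corpus tumor. The median was 0.49, and 0.30 without antrum 1, 0.19 without corpus 1, 0.91 without corpus 2 and -0.06 without antrum 1 and corpus 1. In that last fit 2 of 33 were higher in every antrum tumor and 9 in every corpus tumor, against 3615 and 3618 of 16589 genes. Ncam1, a neural adhesion molecule, was at 55.1, 30.5 and 79.2 CPM against 10.8, 28.7 and 22.6 CPM (1.41, SE 0.48, unadjusted p = 0.0119). Syp, the synaptic vesicle protein used to diagnose neuroendocrine tumors, was at 132, 39.2 and 76.2 CPM against 13.2, 62.5 and 48.7 CPM (0.99, SE 0.77), and Rab3a, a vesicle GTPase, at 54.4, 22.2 and 37.5 CPM against 9.72, 29 and 17.7 CPM. For both, antrum 2 lay inside the corpus range. Eno2, neuron-specific enolase, was at 14.1, 2.85 and 10.8 CPM against 2.69, 4.26 and 4.05 CPM. Markers of enteric neurons and glia, another source of such transcripts, had a median of 0.74 over 17 genes (0.43 without antrum 1 and 1.44 without corpus 2), with 1 without overlap. Their summed level was 290, 275 and 313 CPM in antrum 1 to 3 and 315, 241 and 253 CPM in corpus 1 to 3, and its part in the neuroendocrine values was not tested. Tubb3, a neuronal tubulin, was at 75, 10.3 and 39 CPM against 3.16, 14.3 and 5.3 CPM.

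**Figure D4:**
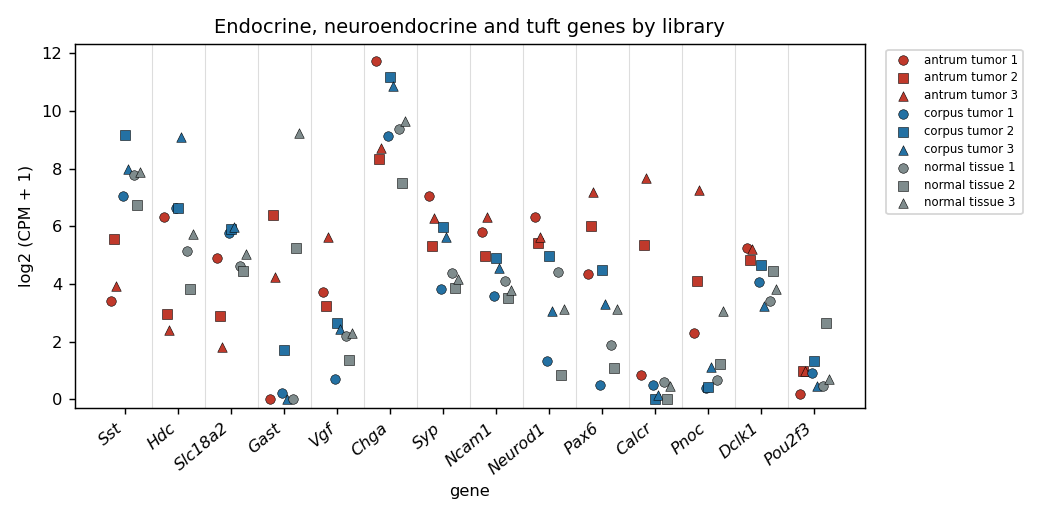
Log2 of CPM plus 1 (y axis) for 14 endocrine, neuroendocrine and tuft genes (x axis) in each antrum tumor (red), corpus tumor (blue) and normal tissue (grey), with the marker shape giving the replicate. Sst, Hdc and Slc18a2 lie higher in all corpus tumors, Vgf, Ncam1, Neurod1, Calcr, Pnoc and Dclk1 in all antrum tumors, and Gast, Chga, Syp, Pax6 and Pou2f3 overlap.

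Tuft cell genes, which mark the lineage in which Cre was driven, had a median of -0.21 over 20 genes (0.21 without antrum 1 and 0.15 without corpus 2), with 1 without overlap in each direction. Dclk1, a microtubule kinase of tuft cells that neurons also express, was at 37.1, 27.3 and 36.3 CPM against 15.8, 24.1 and 8.33 CPM (1.06, SE 0.38, unadjusted p = 0.0161, adjusted p = 0.9534 in edgeR). Hpgds, the prostaglandin D synthase, was at 3.5, 3.79 and 2.7 CPM against 4.58, 4.26 and 4.27 CPM. The factor Pou2f3 itself was at 0.123, 0.991 and 0.991 CPM against 0.87, 1.51 and 0.379 CPM, at or under 1.51 CPM in all 6 tumors. The tuft effector Plcb2, a phospholipase of taste signalling, and the receptor Il17rb for the cytokine IL-25 reached 3.72 and 2.53 CPM at most.

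None of the 4 engineered genes separated the sites, and their median was -0.11. Myc was at 475, 163 and 347 CPM in the antrum tumors and at 95.2, 140 and 231 CPM in the corpus tumors, with normals from 39.1 to 98.5 CPM, and corpus 3 overlapped with antrum 2 (1.08, SE 0.62, adjusted p = 0.9534 in edgeR). Rb1 differed by -0.15 (SE 0.24) and Trp53 by -0.08 (SE 0.34, and by 0.10 in the fit of log2 TPM), and the levels of both ran from 23.3 to 46.6 CPM over the 6 tumors. The deleted exons cannot be read from counts per gene, so these levels do not check the deletion. All 23 Myc targets of ribosome production and all 23 genes of mitosis had a positive log2 difference, and 31 of 34 genes of DNA replication did, against 49.1% of all genes. The medians were 0.36, 0.40 and 0.28. They rested on antrum 1 and corpus 1: without antrum 1 they were 0.09, 0.18 and 0.15, without corpus 1 they were 0.10, 0.16 and 0.11, and without both they turned to -0.14, -0.08 and -0.02.

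Within these lists the single genes were close. Mybbp1a, a nucleolar protein, was at 376, 261 and 343 CPM against 163, 292 and 299 CPM, and Nop58, a core protein of nucleolar ribonucleoproteins, at 287, 189 and 240 CPM against 128, 215 and 201 CPM, with corpus 1 lowest in both. Mki67, the proliferation marker, was at 594, 398 and 417 CPM against 254, 328 and 427 CPM, and all 6 tumors exceeded the normals, which reached 167 CPM. Pola1 and Mcm10, needed to start DNA replication, were the 2 genes of that list higher in every antrum tumor, with Pola1 at 41, 41.4 and 39.5 CPM against 21.7, 29 and 29.1 CPM (0.61, SE 0.34). Of 19 p53 targets, 1 was without overlap and the median was 0.01. That gene was Sesn1, a stress-induced inhibitor of mTORC1, at 52.1, 23.5 and 27.2 CPM against 13.8, 22.7 and 21.4 CPM.

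Genes of the interferon response and of antigen presentation were lower in the antrum tumors, without a gene that passed. All 20 interferon genes had a negative log2 difference, against 50.8% of all genes, and 3 were lower in every antrum tumor, against 4.57%. The median of -1.92 was -1.43 without antrum 1, -0.89 without corpus 1 and -0.40 without both. Without antrum 2 it was -3.18, with 17 of 20 lower in every antrum tumor, against 2560 of 16611 genes. Ifit3, an antiviral protein, was at 0.615, 10.4 and 7.27 CPM in the antrum tumors and at 181, 15 and 14.9 CPM in the corpus tumors (-3.53, SE 1.48, adjusted p = 0.9534 in edgeR). Corpus 1 stood apart from all other tumors for this gene, and likewise for Rsad2, another antiviral protein, at 1.66, 28 and 7.76 CPM against 267, 28.2 and 24.2 CPM, and Gbp2, a guanylate-binding protein, at 1.11, 17.4 and 8.7 CPM against 90.1, 19.5 and 18.8 CPM. Cxcl9, a chemokine that draws T cells, was at most 1.85 CPM in any tumor.

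All 13 genes of antigen presentation had a negative log2 difference, and 8 were lower in every antrum tumor, against a background of 4.57%. The median was -1.60, and -1.08 without antrum 1 and -0.82 without antrum 1 and corpus 1. Without antrum 2 it was -3.16, with all 13 lower in every antrum tumor, against 2560 of 16611 genes. Psmb8, a subunit of the immunoproteasome, was at 1.97, 16.3 and 4.24 CPM against 56, 21 and 24.1 CPM (-2.17, SE 0.92), Tap2, the peptide transporter, at 6.76, 30.6 and 13.1 CPM against 97, 32.8 and 33.4 CPM (-1.69, SE 0.86), and H2-K1, a class I molecule, at 271, 1091 and 400 CPM against 2163, 1123 and 1079 CPM (-1.31, SE 0.70). In each of them antrum 2 was close to or inside the range of corpus 2 and 3. Nlrc5, the activator of class I genes, was at 4.49, 33.7 and 5.12 CPM against 108, 31 and 50.5 CPM. The pan-epithelial sum is low in antrum 1 and highest in corpus 1, as these genes are, and its part in them was not tested.

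Immune cell markers had no common direction. Of 20 macrophage and monocyte genes, 2 were higher in every antrum tumor and 3 in every corpus tumor, against 4.79% and 4.57% of all genes. The median was -0.13. Their summed level was 741, 1128 and 779 CPM in antrum 1 to 3 and 1197, 889 and 929 CPM in corpus 1 to 3, above the normals at 439 to 620 CPM. Cd163, the hemoglobin scavenger receptor of resident macrophages, was at 3.01, 3.26 and 4.57 CPM against 1.03, 0.841 and 0.811 CPM (2.01, SE 0.63, unadjusted p = 0.00762, adjusted p = 0.9534 in edgeR), and the normals were higher still, at 9.92, 5.06 and 14.9 CPM. Ly6c2 and Ccr2, which mark blood monocytes, and Lyz2, lysozyme, were the 3 lower in every antrum tumor, with Lyz2 at 75, 94 and 48.1 CPM against 103, 113 and 103 CPM. Of 12 neutrophil genes, 1 was without overlap and the median was 0.72, or -0.21 without antrum 3. That gene was Mmp8, a neutrophil collagenase, at most 2.64 CPM in any tumor. Lists of T and NK cells (7 genes tested), B and plasma cells (7) and mast cells (11) had medians of -0.28, -0.18 and -0.57, those of B and plasma cells and of mast cells turning to 0.11 and 0.04 without corpus 2, with 1 gene without overlap among them, Xbp1, a factor of secretory cells, at 107, 233 and 154 CPM against 349, 259 and 241 CPM.

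The chemokine axis named in the title of the series did not separate the sites. Cxcl5, a ligand that draws neutrophils through the receptor Cxcr2 (chromosome 5, 90759360 to 90761624), was at 0.553, 6.53 and 20.5 CPM in the antrum tumors and at 5.93, 22.1 and 7.62 CPM in the corpus tumors. The groups overlapped fully (-0.37, SE 1.06), and each tumor but antrum 1 was at 5.93 CPM or more, while the normals were at most 0.523 CPM. Cxcr2 was at 0.799, 0.641 and 2.31 CPM against 0.632, 1.07 and 0.811 CPM. None of 8 genes of this axis was without overlap, and the median was 0.35, or -1.04 without antrum 3. Among 19 inflammatory cytokines and acute-phase genes, with a median of -0.19, Csf1, the macrophage growth factor, was lower in every antrum tumor, at 4.3, 8.68 and 9.2 CPM against 11.7, 9.98 and 11.9 CPM. The median of this list was 0.285 without antrum 1 and -0.908 without antrum 3. Saa3, a serum amyloid, was at 492 CPM in antrum 3 and at most 13.4 CPM in the other 5 tumors.

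Position and patterning genes were also described. Of 33 Hox genes listed, 18 were tested, 8 of them were higher in every corpus tumor, against 4.57% of all genes, 0 in every antrum tumor, and 17 had a negative log2 difference, against 50.8%. The median was -0.92, and -1.11 without antrum 1 and -1.31 without antrum 1 and corpus 1. The filter also counted the other groups, and the summed Hox level in the normals was 35.9 to 75 CPM. In the fit of the 6 tumors only, 7 Hox genes were tested, 2 were higher in every corpus tumor and the median was -0.44. Of all genes in that fit, 677 of 15090 were higher in every corpus tumor. On the log2 scale of TPM plus 1, which compresses low genes, the median was -0.19 while that of all genes was 0.12. Levels were low throughout, with summed levels of 7.56, 11.2 and 5.67 CPM in antrum 1 to 3 and 11.2, 15.3 and 14 CPM in corpus 1 to 3. Hoxa5, the paralog with the smallest p in edgeR, was at 0.676, 0.291 and 0.22 CPM against 1.03, 2.13 and 1.03 CPM (-1.81, SE 0.51, unadjusted p = 0.00416, adjusted p = 0.9534 in edgeR), and the normals were at 4.05 to 5.58 CPM. Hoxc6, named after its values were seen, had the smallest adjusted p of all genes in DESeq2 (3.97e-05) and an unadjusted p of 0.254 in edgeR, at 0 in every antrum tumor and at 0.0791, 0.168 and 0.0541 CPM in the corpus tumors, which is near the level of single counts. Hoxb2 was at 0.984, 1.51 and 0.551 CPM against 1.98, 2.47 and 2.76 CPM (-1.24, SE 0.43). Irx2, a homeobox factor, was at 5.35, 7.11 and 9.74 CPM against 16, 28.2 and 29.7 CPM (-1.73, SE 0.58, unadjusted p = 0.0109), and its neighbour family member Irx5 at 13.3, 1.11 and 1.16 CPM against 13.8, 9.93 and 26.1 CPM. Hhex, a foregut factor that induces somatostatin cells in the pancreas, was at 1.78, 2.91 and 1.98 CPM against 2.37, 8.75 and 7.3 CPM (-1.46, SE 0.55). Meis2, a partner of Hox proteins, was placed the other way, at 60.9, 78.2 and 51.8 CPM against 32.7, 34.2 and 14 CPM (1.24, SE 0.72). Sox2, a factor of the foregut, differed by -0.09 (SE 0.81). The list of 31 patterning factors had a median of -0.39, with 1 gene without overlap in each direction. This median was -0.75 without antrum 2, -0.145 without corpus 1 and -0.0588 without antrum 1 and corpus 1.

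Signalling and matrix lists had few members without overlap. Of 28 Wnt genes, 2 were higher in every antrum tumor and 1 in every corpus tumor, near the shares of all genes (4.79% and 4.57%), with a median of 0.33 (0.14 without antrum 3 and 0.59 without antrum 1). Fzd10, another Wnt receptor, was at 4.18, 1.28 and 3.3 CPM against 0.316, 0.112 and 0.0541 CPM (4.20, SE 1.21, adjusted p = 0.9534 in edgeR and 0.0408 in DESeq2). Of 25 genes of the Hedgehog, BMP and activin pathways, 2 were higher in every antrum tumor, Ptch1, the Hedgehog receptor, and Tgfb2, a transforming growth factor, and the median was -0.18. It was 0.0859 without antrum 1 and 0.425 without antrum 1 and corpus 1. Tgfb2 was at 21.1, 10.7 and 23.5 CPM against 3.87, 9.31 and 9.84 CPM (1.26, SE 0.41, unadjusted p = 0.00977). All 9 genes of mesenchymal transition had a positive log2 difference, with 2 without overlap and a median of 0.65 (0.88 without antrum 1 and 0.85 without antrum 1 and corpus 1). Without antrum 3 the median was 0.19 and 3 of the 9 turned negative. Fn1, the matrix protein fibronectin, was at 470, 457 and 729 CPM against 164, 291 and 348 CPM (1.04, SE 0.44), and Zeb1, a repressor of epithelial genes, at 55.4, 33.9 and 36.5 CPM against 17.4, 32.6 and 32.9 CPM (0.60, SE 0.34). Of 18 fibroblast and matrix genes only Fn1 was without overlap, and the median was -0.05. Cald1, the contractile regulator caldesmon, was the 1 of 15 smooth muscle genes (median 0.26, or -0.18 without antrum 1) without overlap, at 156, 134 and 222 CPM against 74.9, 118 and 113 CPM. Esam, an endothelial adhesion molecule, was the 1 of 13 endothelial genes (median -0.43), at 13, 13.8 and 6.77 CPM against 17.1, 26.3 and 19.7 CPM (-0.91, SE 0.37).

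In each of the remaining lists at most 1 gene was without overlap, against 9.36% of all genes in either direction. Cyp26b1, which breaks down retinoic acid, was at 1.91, 4.2 and 11.9 CPM in the antrum tumors and at 0.632, 1.07 and 0.919 CPM in the corpus tumors (2.76, SE 0.99, unadjusted p = 0.0159, adjusted p = 0.9534 in edgeR), the 1 gene without overlap among 19 xenobiotic and retinoid enzymes, whose median was -0.04. That median was 0.481 without antrum 1, 0.353 without corpus 1 and 0.811 without antrum 1 and corpus 1. Car9, a carbonic anhydrase induced by hypoxia and present in the gastric surface, was at 23.2, 80 and 49.8 CPM against 218, 104 and 124 CPM (-1.54, SE 0.86), the 1 gene without overlap among 20 of glycolysis and hypoxia (median -0.03). Mmp12, macrophage elastase, was the 1 of 18 matrix protease genes (median 0.02, or 0.375 without antrum 1 and -0.384 without antrum 3), at 4.67, 18.4 and 15.2 CPM against 21.2, 26 and 25.1 CPM. Fabp4, a fatty acid binding protein of fat cells and vessels, was the 1 of 5 adipocyte genes (median -0.77), lower in every antrum tumor. Egf, the epidermal growth factor, had the smallest p of 13 genes of its receptor family, at 3.26, 1.98 and 3.03 CPM against 17.7, 2.52 and 5.51 CPM (-1.63, SE 0.60). No gene was without overlap among 13 of the EGF family, 17 of the Notch pathway, 16 immediate early genes, 13 mitochondrially encoded genes, 5 erythroid genes or 5 genes of interstitial pacemaker cells, whose medians were -0.21, 0.09, -0.15, -0.17, 0.26 and 0.50. Without antrum 1, the medians of the EGF family, the Notch pathway and the immediate early genes turned to 0.251, -0.26 and 0.0692. Without antrum 3, those of mitochondrially encoded and erythroid genes turned to 0.0745 and -0.0724.

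**Figure D5:**
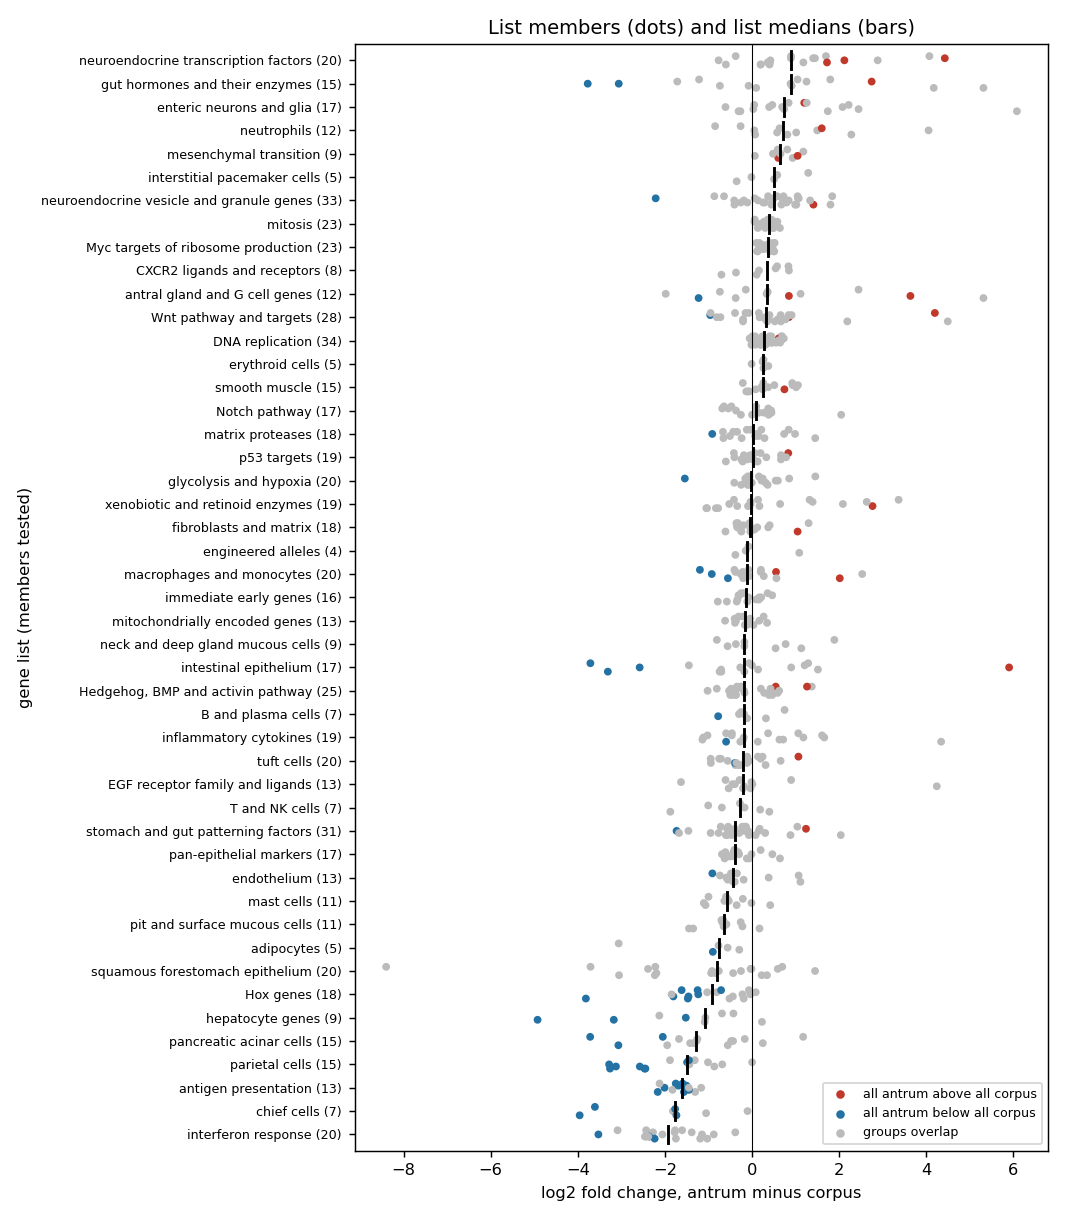
Log2 fold change, antrum minus corpus (x axis), of each tested member (dots) of 47 gene lists (y axis, with the number tested) and the list median (black bars). Red and blue dots are members whose groups do not overlap, and the lowest medians are those of the interferon response (-1.92), chief cells (-1.77), antigen presentation (-1.60) and parietal cells (-1.49).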

How the data were processed

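RNA of mouse stomach tissue was extracted with a column kit and sequenced as paired reads of 100 bases, per the labels' protocols. The authors deposited estimated counts per gene, as whole numbers for 36144 genes. A second table that they deposited carries FPKM in its name, but its columns share a single total, so its values were taken as TPM. Its group line codes antrum and corpus alike, while the count table and the labels separate them, and groups were taken from the labels. Per the submitters' processing notes, bcl2fastq 2.19, kallisto 0.44.0, sleuth, DESeq2 and GRCm38.p6 were used, with no role or order. Not given in the sources used here are the summing of transcripts to genes, the annotation, the use of strand in counting, and whether the reference held the Myc transgene.

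The test was edgeR's quasi-likelihood F test (edgeR 4.0.16, R 4.3.3) with TMM scaling and robust dispersions. The fit covered the 5 groups of the series, 15 samples, for genes that filterByExpr retained at a minimum count of 10. Adjusted p-values follow Benjamini and Hochberg over all 16224 genes, and a gene was called under 0.05. All adjusted p-values are from edgeR unless DESeq2 is named. The procedure was tested on simulated data. Depth bounds the precision of low genes, for which 1 count is 0.0541 to 0.0791 CPM, and covers counting error only.

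The comparison, the 47 gene lists (807 different genes, 9 absent from the tables, 728 tested) and the panel of 21 genes were chosen with earlier results of these data known, and list members share libraries, so lists are described by counts and medians only. The rule names the panel, 12 genes in each direction as described in the report, and up to 4 members of each list with the smallest p, from which the text gives the leading ones. Some genes that the rule names are not reported here. Predicted genes, pseudogenes and antibody segments were passed over. Coordinates are from GENCODE M21, which holds 99.3% of the symbols, and 26 symbols had turned into dates. Alternatives were DESeq2 1.42.0, its size factors within edgeR, no filter, a replicate block, fits of the 6 or the 12 tumors only, limma 3.58.1 on log2 of TPM plus 1, a test against a 1.5-fold change and leaving out each library.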

Additional observations from a re-analysis of the deposited data

How the results depend on the processing

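No gene passed with edgeR under DESeq2 size factors, no filter on low counts, fits of the 6 or of the 12 tumors only or a test against a 1.5-fold change, nor with limma on log2 of TPM plus 1. DESeq2 called 62 genes, 43 of them without overlap between the groups, and had 1070 genes at an unadjusted p under 0.05. The test against a 1.5-fold change had 362 such genes. Leaving out each library in turn gave 0 to 1 calls, with 1 without corpus 2, and 292 (without corpus 1) to 1177 (without antrum 2) genes at an unadjusted p under 0.05. With fewer libraries, the genes without overlap numbered 2131 to 5099, and 7233 without antrum 1 and corpus 1, a setting added after the data were seen, by the construction of that count. Same-numbered antrum and corpus tumors did not deviate together (correlations of their deviations from -0.566 to -0.296). Antrum 1 and corpus 1 stood apart in opposite ways, so this check cannot tell whether same-numbered samples came from the same animal. A replicate block gave 0 calls and 873 genes at an unadjusted p under 0.05 in edgeR. Of these, 374 were higher in antrum and 499 in corpus tumors, the other way round than the 378 and 236 without the block. The replicate block turned the medians of gut hormone genes to -0.28, p53 targets to -0.06 and matrix proteases to -0.24. Among other lists, it moved the interferon median to -3.53, antigen presentation to -2.62, pit and surface mucous genes to -2.43 and mast cells to -1.70. The fold change of 9 named genes turned in direction somewhere, and the cause was not tested. Trp53 turned to 0.098 with TPM, and Sox2 to 0.0887 with the replicate block. Without antrum 1 and corpus 1, values were 0.34 for Cdh1, 0.0674 for Pou2f3, 0.165 for Rb1 and 0.342 for Trp53. Leaving out single libraries moved Chga from -2.10 (without antrum 1) to 0.311 (without antrum 2), Cxcl5 from -1.75 (without antrum 3) to 0.442 (without corpus 2), Cxcr2 from -0.22 (without antrum 3) to 0.879 (without antrum 2), Pou2f3 from -0.76 (without corpus 3) to 0.19 (without corpus 2), Rb1 from -0.447 (without antrum 2) to 0.0536 (without antrum 1), Saa3 from -0.894 (without antrum 3) to 4.91 (without antrum 1), Sox2 from -0.362 (without antrum 1) to 0.263 (without antrum 3) and Trp53 from -0.408 (without antrum 2) to 0.186 (without corpus 1). Of 705 list medians under the settings, 688 moved by less than the median SE of the list's genes. Leaving out some single library changed the sign of the median of 23 lists, and 24 kept their sign without each of the 6. With TPM, the medians of the engineered alleles, macrophages, mitochondrially encoded genes, matrix proteases and glycolysis genes changed sign. The 3 libraries a group, and the spread of antrum 1 and corpus 1, limit what this comparison can show, and a gene that did not pass is not shown to be alike in both sites.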

Other observations

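Some abundant genes outside the lists also had groups that did not overlap. They were chosen after their values were seen, and none passed with edgeR (adjusted p = 0.9534 for each). Clps, the cofactor of pancreatic lipase, was at 379, 700 and 340 CPM in antrum 1 to 3, at 15684, 2170 and 4327 CPM in corpus 1 to 3 and at 12600 to 21800 CPM in the normals. Pla2g1b, a secreted phospholipase of digestive juice, was at 12.4, 285 and 153 CPM against 6672, 599.6 and 1537 CPM, with normals from 5822 to 9553 CPM. For both genes corpus 1 lay within the range of the normals and every antrum tumor lay far below it.

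On the antrum side, Nhlh2, a neuronal helix-loop-helix factor, was at 107, 24.1 and 81.3 CPM against 0.395, 11.5 and 0.703 CPM. Fscn1, the actin-bundling protein fascin, was at 53.8, 35.1 and 87.2 CPM against 10.04, 17.8 and 18.9 CPM, and Camk2b, a kinase of neurons, at 143, 69.7 and 115 CPM against 6.72, 50.4 and 25.1 CPM. The imprinted genes Dlk1, Grb10 and Zdbf2 were higher in every antrum tumor as well. Dlk1 was at 94.7, 67.5 and 113 CPM against 6.17, 37 and 39.6 CPM, while the normals were at most 3.67 CPM. Grb10 was at 75, 53.6 and 79.3 CPM against 15.6, 32.6 and 22.7 CPM, and Zdbf2 at 37.6, 63.5 and 73.8 CPM against 0.395, 28 and 9.57 CPM. In each of the 6 genes corpus 1, which had the lowest neuroendocrine sum, was the lowest of the tumors, and the part of that sum in these levels was not tested.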
